A study of Mus musculus with 11 samples.

Results

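The question of these data is whether losing Six3 and Six6 together does more, or less, to each gene of the embryonic mouse retina than the sum of losing each alone. All 11 libraries of the series enter this comparison (11 of 11 samples), since it needs all 4 genotypes. Total RNA was sequenced from pairs of retinas of NMRI embryos at E13.5, after tamoxifen given to the dams at E10.5 and E11.5 (0.15 mL at 20 mg/mL each). The WT group (3 libraries) was Six3F/F without Cre, so it carried floxed but intact Six3. The Six3KO group (3 libraries) was Six3F/F with CAGGCre-ERTM, the Six6KO group (2 libraries) was Six3F/F with a germ-line Six6 null and no Cre, and the DKO group (3 libraries) carried the floxed Six3, the Six6 null and the Cre. Every group thus had the floxed Six3 alleles and received tamoxifen. CAGGCre-ERTM is a widely expressed, tamoxifen-activated Cre that is not restricted to the retina, and the Six6 null was in the germ line. The third Six6KO sample was dropped by the submitters for a high share of duplicate reads. Since RNA was taken from whole tissue, fewer cells of a type and less RNA per cell cannot be told apart.

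Six3 and Six6 are closely related homeodomain factors that are expressed in the eye field. Both stay on in retinal progenitors, the dividing cells that give rise to ganglion, amacrine, horizontal, photoreceptor and other retinal neurons. When paralogs can stand in for one another, losing either has little effect on a shared target while losing both has a large one. Genes that respond to each loss separately instead sum the effects.

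For each gene the departure from additivity was computed on the log2 scale as DKO minus Six3KO minus Six6KO plus WT. A departure of 0 means that the DKO level equals the sum of the 2 single log2 effects added to WT, which is called the additive level here. A positive departure means that DKO stood above it and a negative one that DKO stood below it. An effect of Cre that is the same with and without Six6 cancels on this scale. Levels are read counts scaled to library size with TMM factors (CPM), and differences are log2 values ± standard error (SE). Tests are edgeR quasi-likelihood tests on the counts, with Benjamini-Hochberg adjustment over 13292 genes, and a gene was called at an adjusted p under 0.05. Nothing in the labels says that replicates came from separate litters, so the p-values measure the spread between these retina pairs.

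Each library matched its label for the targeted genes. Six3 stood at 164 to 299 CPM in WT and 30.3 to 98.2 CPM where it was deleted. Six6 stood at 225 to 340 CPM in WT and 52.8 to 131 CPM in the 2 genotypes with the null allele. Their departures were 0.26 ± 0.62 for Six3 and -0.58 ± 0.52 for Six6 (adjusted p = 0.946 and 0.791). Exons of Six3 overlap Six3os1 and those of Six6 overlap 4930447C04Rik on the other strand, and whether counting used strand is unknown, so reads of each pair may be shared. Esr1, part of which is in the Cre fusion, stood at 50.2 to 62.0 CPM in the groups with Cre, and its 1 read in the Six6KO group allows no departure to be given. Libraries held 7807744 to 16403191 reads in genes. The progenitor genes Rax (98.8 to 288 CPM), Pax6 (511 to 1079 CPM) and Lhx2 (82.6 to 158 CPM) were present in every library. Genes of tissue that borders the retina varied widely, and their values stand beside the results they move with. Summed over 25 periocular mesenchyme genes, DKO libraries held 343 to 443 CPM, WT libraries 625 to 3434 CPM, Six3KO libraries 793 to 5790 CPM and Six6KO libraries 2390 to 3634 CPM. Summed over 23 lens genes, the ranges were 10.1 to 221 CPM in DKO, 29.2 to 1542 CPM in WT, 295 to 27366 CPM in Six3KO and 52.9 to 11844 CPM in Six6KO. No gene of these lists was at 0 in every library of a group. No single pair of libraries was extreme in every list. Lens scores (mean log2 CPM relative to the WT mean) were highest in the Six3KO libraries rh012 (6.83) and rh026 (6.56) and the Six6KO library rh020 (5.44), and the WT library rh023 was low for mesenchyme (-2.11) and vessel genes (-2.67). Results are also given without rh026 and rh020, a pair that lay apart in an earlier analysis of these data, and each library was left out in turn.

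**Figure D1:**
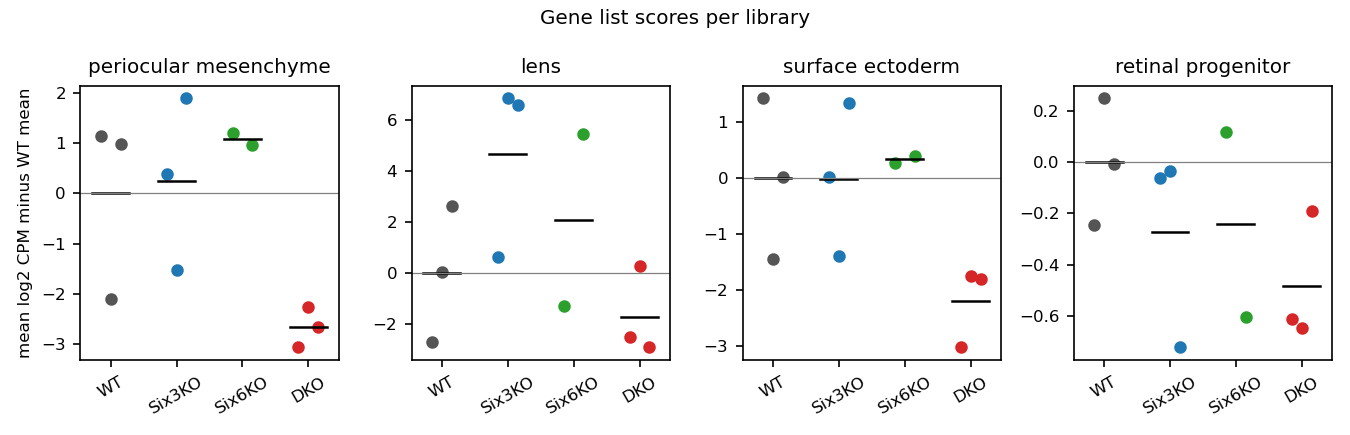
Scores of 4 gene lists (vertical axes: mean log2 CPM of the list relative to the mean of WT libraries), with 1 point per library by genotype and black bars at genotype means. On the mesenchyme panel DKO spans -3.06 to -2.25, WT spans -2.11 to 1.13 and both Six6KO libraries lie near 1.

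No gene passed the threshold for a departure from additivity in edgeR. Of 13292 genes, 0 were called (0%), and the smallest adjusted p was 0.140, shared by 5 genes. At an unadjusted p under 0.05 there were 1328 genes (9.99%), of which 521 had DKO above the additive level (3.92%) and 807 below it (6.07%). limma voom also called 0, with 1049 genes at an unadjusted p under 0.05. DESeq2 called 240 genes of 13429 (1.79%), 76 above the additive level (0.566%) and 164 below it (1.22%). Of those 240, 20 belonged to lists of bordering tissue, among them 15 of the 23 lens genes. No list covers muscle. Calls below the additive level included the muscle genes Tnnt2 (-9.11), Des (-6.75) and Myh3 (-7.76), named after their values were seen. The 20 are thus not a full count of genes from other tissue. With the Six3KO library rh026 and the Six6KO library rh020 left out, DESeq2 called 37 genes, of which 24 were among the 240 (16 above and 8 below). With the mesenchyme score as a covariate it called 106, of which 91 were above the additive level and 15 below, the opposite lean, and 24 were among the 240 (15 above and 9 below). In edgeR, leaving out the DKO library rh021 gave 3 calls, all above the additive level: A730017C20Rik, Fam171b and Glis3 (adjusted p = 0.0260), names chosen after their values were seen. Over the edgeR settings tried, the smallest adjusted p ran from 0.0260 to 0.530.

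The departure is the least precise of the contrasts, because it carries the error of all 4 groups. Its SE had a median of 0.26 over the 11652 genes that averaged 5 CPM or more, against 0.17 for DKO minus WT. In simulated data with known departures, the fit recovered 11.4% of genes that departed 2 fold, 72.1% of those that departed 4 fold and 92.9% of those that departed 8 fold. The simulations gave all groups a common mean apart from the planted departures, with no shared variation from bordering tissue. These shares therefore do not tell how many departures the fit of the real libraries missed. The median departure over all genes tested was -0.01. The simple effects behind the contrast were as uneven. Six3KO minus WT had 1 call (0.00752%), which was Esr1, and Six6KO minus WT had 0 (0%). DKO minus WT had 172 calls (1.29%), 87 higher (0.655%) and 85 lower (0.639%). DKO minus Six3KO had 78 (0.587%), 44 higher (0.331%) and 34 lower (0.256%). DKO minus Six6KO had 31 (0.233%), 22 higher (0.166%) and 9 lower (0.0677%). These contrasts share samples with each other and with the departure, so they are set side by side below and not compared.

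The 24 genes with the smallest p for the departure among those of at least 5 CPM with an eligible name are described next, as estimates of which none passed in edgeR (unadjusted p from 3.03e-05 to 0.000689, adjusted p from 0.140 to 0.311). DESeq2 called all 24, with adjusted p from 1.47e-09 (Nudt4) to 0.00661 (Lrfn5), while their adjusted p in limma voom ran from 0.235 to 0.538. DKO stood above the additive level in 12 of them and below it in 12. Both single estimates were under 0.5 in size in 16, and for 15 the 95% limits of both lay between -1 and 1. Another 4 genes had p values in that range and are left out by the naming rule: Col13a1 (-5.61, with a p below that of Ptprt) and Hspb3 average under 5 CPM, and A730017C20Rik and 1190002N15Rik are predicted genes. With the mesenchyme score as a covariate, 1 of the 24 departures was smaller by over 1.5 times (Speg), and with mesenchyme and lens scores 4 were (Ptprt at -1.66, Egflam at -1.30, Spsb1 at -0.79 and Speg).

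Among genes above the additive level, Nudt4, an enzyme that removes phosphate from diphosphoinositol polyphosphates, showed the pattern most plainly. It stood at 277, 310 and 302 CPM in WT, 302, 285 and 301 CPM in Six3KO, 291 and 232 CPM in Six6KO, and 556, 609 and 610 CPM in DKO. All 3 DKO libraries were high and no single-mutant library left the WT range upwards. The additive level was 261 CPM, the DKO mean 592 CPM and the departure 1.18 ± 0.16 (95% limits 0.82 to 1.54). Nudt4 rose in DKO against Six3KO (1.00 ± 0.11, adjusted p = 0.00607) and against Six6KO (1.18 ± 0.12, adjusted p = 0.0135). Its gene lies on chromosome 10, 95547007 to 95564146, minus strand (GRCm38).

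Sh3bgrl2, which encodes a small thioredoxin-fold protein, was flat across the other 3 genotypes. Its libraries stood at 84.2, 74.4 and 65.8 CPM in WT, 74.1, 81.3 and 68.9 CPM in Six3KO, 74.1 and 68.7 CPM in Six6KO, and 157, 167 and 142 CPM in DKO. The 8 libraries outside DKO overlapped fully and the 3 DKO libraries stood above all of them. Its departure was 1.12 ± 0.18, from an additive level of 71.4 CPM. Trps1, a GATA-type zinc finger repressor, behaved alike at 94.7 to 116 CPM in the 8 libraries outside DKO and 198, 189 and 174 CPM in DKO, with a departure of 0.86 ± 0.16. Both rose in DKO against each single mutant, Sh3bgrl2 by 1.05 and 1.12 and Trps1 by 0.85 and 0.82 against Six3KO and Six6KO (adjusted p of 0.0336 or less in each).

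The largest of the 24 departures was that of Tmem132b, a membrane protein gene on chromosome 5 (125531774 to 125792583, plus strand). It stood at 6.02, 11.4 and 14.9 CPM in WT, 9.98, 8.25 and 11.9 CPM in Six3KO, 10.2 and 5.14 CPM in Six6KO, and 194, 197 and 65.8 CPM in DKO. Every DKO library was far above the other 8, and rh021 was the lowest of the 3. The additive level was 7.21 CPM and the departure 4.40 ± 0.74 (95% limits 2.74 to 6.06). Lmo3, a LIM-only cofactor gene, stood at 0.765 to 2.32 CPM in the 8 libraries outside DKO and at 23.3, 27.2 and 13.6 CPM in DKO, with a departure of 3.32 ± 0.65. Glis3, a Krüppel-like zinc finger factor on chromosome 19 (28258851 to 28680077, minus strand), stood at 25.6, 25.9 and 26.8 CPM in WT, 27.7, 24.5 and 24.9 CPM in Six3KO, 33.5 and 28.7 CPM in Six6KO, and 130, 101 and 68.3 CPM in DKO. Its departure was 1.70 ± 0.30 from an additive level of 30.7 CPM. For all 3 of these genes the DKO library rh021 was the lowest of its group, and it was also the DKO library with the most Six3 (98.2 CPM) and Six6 (99.8 CPM); its part in the spread was not tested. All 3 rose in DKO against each single mutant, with adjusted p of 0.0106 or less against Six3KO and of 0.0336 against Six6KO.

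Plch1, a phospholipase C, had single estimates slightly below WT and a DKO level above it. Its libraries stood at 193 to 219 CPM in WT, 151 to 188 CPM in Six3KO, 165 and 180 CPM in Six6KO and 376, 381 and 290 CPM in DKO. The departure was 1.26 ± 0.20 from an additive level of 146 CPM. Pde1c, a calmodulin-dependent phosphodiesterase (1.02 ± 0.20), and Khdrbs3, an RNA-binding splicing regulator (1.17 ± 0.23), also had single estimates below WT and DKO above it. No DKO library of either gene was in the range of the others. Pde1c passed in DKO against Six3KO (adjusted p = 0.0264) but not against Six6KO (adjusted p = 0.0697). Khdrbs3 missed in every contrast with DKO (adjusted p from 0.0512 to 0.0561).

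Among genes below the additive level, Ptprt, a receptor tyrosine phosphatase of neurons (chromosome 2, 161521990 to 162661147, minus strand), had the smallest p of the 24 after Nudt4 and Ttyh2. It stood at 16.3, 14.6 and 24.6 CPM in WT, 21.3, 17.9 and 39.2 CPM in Six3KO, 18.4 and 18.3 CPM in Six6KO, and 3.03, 3.31 and 3.01 CPM in DKO. The DKO libraries were low and close together, and the 8 others overlapped, with the highest value in the Six3KO library rh026. The additive level was 25.9 CPM and the departure -3.05 ± 0.45 (95% limits -4.05 to -2.05). It was -2.62 without rh026 and rh020 and -2.08 with the mesenchyme score as a covariate. Ptprt fell in DKO against Six3KO (-3.06, adjusted p = 0.00607) and against Six6KO (-2.55, adjusted p = 0.0297).

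The promoter windows of the gene with the smallest p among those of the redundancy class above the additive level (Sh3bgrl2), of Ptprt, and of Otx2 show what sequence stands before these genes. Each is the 250 bases before the RefSeq gene start (GRCm38.p6), read 5′ to 3′ on the gene's strand: chr9:83548088-83548337 (plus), chr2:162661148-162661397 (minus) and chr14:48667645-48667894 (minus). Capitals mark TAATTA, a core bound by many homeodomain proteins.
Sh3bgrl2: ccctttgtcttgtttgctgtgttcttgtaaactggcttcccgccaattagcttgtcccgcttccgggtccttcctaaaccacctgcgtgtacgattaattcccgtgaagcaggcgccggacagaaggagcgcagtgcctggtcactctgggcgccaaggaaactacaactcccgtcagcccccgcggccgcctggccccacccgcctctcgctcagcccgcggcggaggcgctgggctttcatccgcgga
Ptprt: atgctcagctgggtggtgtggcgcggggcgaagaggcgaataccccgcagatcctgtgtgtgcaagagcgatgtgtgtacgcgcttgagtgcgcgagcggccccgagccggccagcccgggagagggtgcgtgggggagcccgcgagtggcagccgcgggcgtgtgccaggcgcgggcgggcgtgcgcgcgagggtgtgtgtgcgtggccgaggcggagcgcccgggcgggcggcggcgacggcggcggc
Otx2: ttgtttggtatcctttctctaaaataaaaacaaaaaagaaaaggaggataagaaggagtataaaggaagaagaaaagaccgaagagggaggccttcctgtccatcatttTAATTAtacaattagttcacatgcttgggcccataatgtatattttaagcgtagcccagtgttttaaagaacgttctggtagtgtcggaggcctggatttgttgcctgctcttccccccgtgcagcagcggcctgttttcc
TAATTA, which reads the same on both strands, occurred in 4.8% of 32851 promoter windows of that length, and TGATAC with its reverse complement GTATCA, letters of a site of sine oculis homeobox factors, in 4.6%. Of the 24 genes, 19 matched a window. TAATTA occurred in 1 of the 19 (5.3%), that of Otx2, and TGATAC in 0. The Otx2 window was chosen after its match was seen, and its RefSeq start lies inside the GENCODE span of the gene (48657677 to 48673819). A match is a description of letters and not a site.

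Otx2 itself, the homeodomain factor required for photoreceptor fate, departed less than Ptprt. It stood at 105, 88.8 and 93.7 CPM in WT, 88.7, 78.5 and 84.1 CPM in Six3KO, 55.6 and 79.6 CPM in Six6KO, and 27.7, 30.8 and 25.8 CPM in DKO. The Six6KO library rh007 was the lowest outside DKO, and no DKO library reached the others. From an additive level of 59.1 CPM, the departure was -1.07 ± 0.21 (95% limits -1.54 to -0.60). It was -0.76 without rh026 and rh020, -0.91 with the mesenchyme score as a covariate and -0.74 with mesenchyme and lens scores. Otx2 fell in DKO against Six3KO (-1.58 ± 0.14, adjusted p = 0.0058) and against Six6KO (-1.27 ± 0.16, adjusted p = 0.027). Its exons overlap those of Otx2os1 on the other strand, so the pair may share reads.

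Spry1, a feedback inhibitor of receptor tyrosine kinase signalling, stood at 20.8, 13.6 and 15.2 CPM in WT, 18.2, 18.4 and 29.96 CPM in Six3KO, 22.4 and 22.1 CPM in Six6KO, and 3.03, 4.72 and 6.74 CPM in DKO. Single-mutant libraries were within or above the WT range and the DKO libraries below it. The departure was -2.62 ± 0.45 from an additive level of 29.7 CPM, and Spry1 fell against Six3KO (-2.19, adjusted p = 0.021) and Six6KO (-2.20, adjusted p = 0.0371). Its exons overlap Gm42922. Egflam, the matrix protein pikachurin of photoreceptor synapses, stood at 12.7 to 23.9 CPM in the 8 libraries outside DKO and at 3.44, 2.57 and 3.57 CPM in DKO, a departure of -1.97 ± 0.36. The cell adhesion genes Pcdh1 (20.2 to 30.5 CPM outside DKO, 6.97 to 10.52 CPM in DKO) and Lrfn5 (4.80 to 8.68 CPM outside, 1.07 to 1.82 CPM in DKO) departed by -1.59 ± 0.31 and -2.13 ± 0.44. Egflam, Pcdh1 and Lrfn5 fell in DKO against both single mutants. Ttyh2, a membrane protein of the Tweety family, had single estimates above WT (0.22 ± 0.13 in Six3KO, 0.54 ± 0.14 in Six6KO) and DKO below it. It stood at 14.3 to 15.5 CPM in WT, 16.8 to 18.7 CPM in Six3KO, 20.1 and 23.4 CPM in Six6KO and 9.43 to 10.9 CPM in DKO, so the 4 groups did not overlap, and its departure was -1.35 ± 0.19. Speg, a kinase gene of striated muscle, departed by -2.15 ± 0.44, which was -0.57 with mesenchyme and lens scores as covariates.

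**Figure D2:**
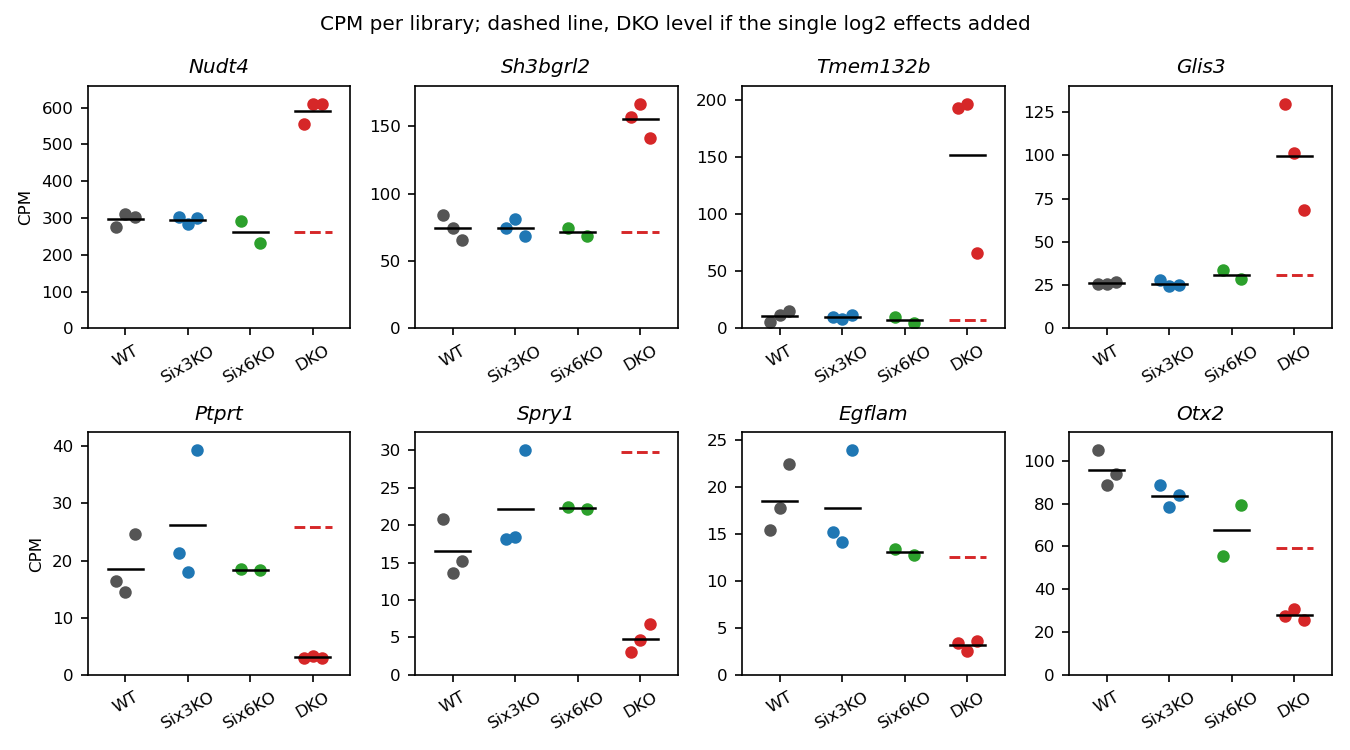
Levels of 8 of the 24 genes (vertical axes, CPM), with 1 point per library by genotype, black bars at genotype means and a dashed line at the additive level for DKO. In the upper row the DKO libraries lie above every other library, as for Nudt4 at 556 to 610 CPM against a dashed line at 261 CPM, and in the lower row they lie below, as for Ptprt at 3.01 to 3.31 CPM against 25.9 CPM.

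In 7 of the 24 genes the DKO estimate was within 0.5 of WT, with both single estimates on the other side of WT. For Gkap1, Adgrl3 and Peak1 the single estimates too were under 0.5 in size. Akr1e1, an aldo-keto reductase, had the largest single estimate of the 7. It stood at 23.3, 40.1 and 35.8 CPM in WT, 13.4, 13.2 and 9.79 CPM in Six3KO, 23.0 and 15.3 CPM in Six6KO, and 38.9, 47.0 and 29.1 CPM in DKO. All Six3KO libraries were below all WT libraries, and DKO overlapped WT. The single estimates were -1.44 ± 0.26 and -0.79 ± 0.29 (adjusted p = 1 and 0.991), the additive level 7.05 CPM and the departure 2.44 ± 0.40. Akr1e1 rose in DKO against Six3KO (1.66 ± 0.26, adjusted p = 0.0273). Fut9, the fucosyltransferase that makes the Lewis x epitope (1.45 ± 0.28), and Gkap1 (0.96 ± 0.18) had the same sign. Abtb2 (-1.24 ± 0.21), the latrophilin Adgrl3 (-0.83 ± 0.15), the ubiquitin ligase adaptor Spsb1 (-1.86 ± 0.36) and the pseudokinase Peak1 (-0.84 ± 0.17) had higher estimates in both singles and a DKO level near or below WT. Adgrl3, for example, stood at 126 to 128 CPM in WT, 135 to 159 CPM in Six3KO, 171 and 172 CPM in Six6KO and 103 to 128 CPM in DKO.

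Across the 24 genes, DKO libraries lay above all 8 others in 10 and below all 8 in 9, where 4.27% and 3.14% of the 11652 genes averaging 5 CPM or more did so. Those positions enter the departure itself, so nothing is read from them. Of the 24, 14 were called in DKO minus WT, 17 in DKO minus Six3KO, 14 in DKO minus Six6KO and 0 in either single mutant against WT. All 24 kept their direction under the 23 other settings tried, and the sign was the same when the departure was taken on the CPM scale. The 24 were chosen by p in the same libraries that these settings reuse, so the kept direction is no independent support.

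**Figure D3:**
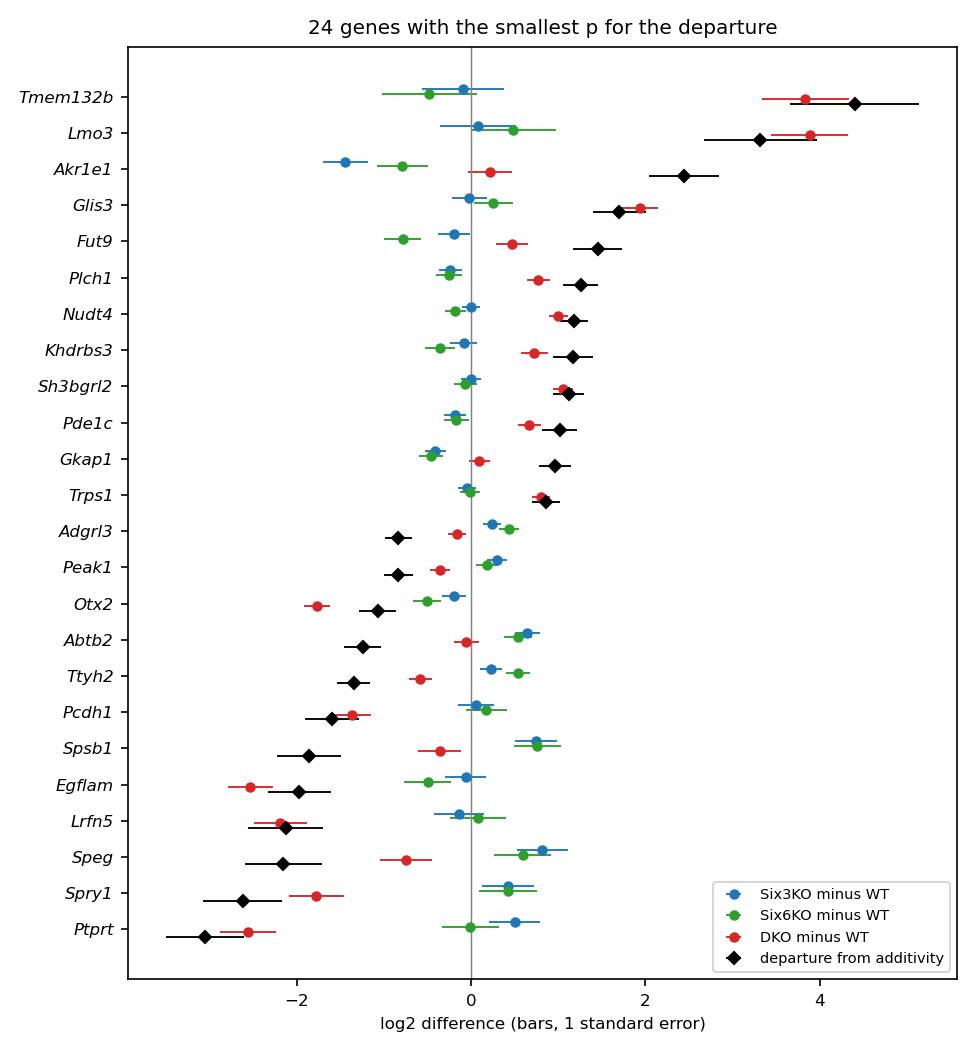
Log2 differences (horizontal axis; bars, 1 standard error) of Six3KO, Six6KO and DKO from WT and the departure from additivity (diamonds), for the 24 genes with the smallest p (vertical axis). Departures run from -3.05 (Ptprt) to 4.40 (Tmem132b), and for Akr1e1 the DKO point lies close to 0 while the departure is 2.44.

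Sorting genes by the size of their estimates gave far more genes with lower than with higher DKO levels in the redundancy and synergy classes, a lean that turned with the mesenchyme covariate. The 11652 genes averaging 5 CPM or more were sorted with no test. The redundancy class holds genes whose DKO differed from WT by at least 1 on the log2 scale with both single estimates under 0.5 in size, and it had 352 genes (3.02%), 78 higher and 274 lower in DKO. In 74 of these the 95% limits of both single effects lay between -1 and 1, so for the others a 2-fold single effect was not excluded by the limits. The synergy class holds other genes with DKO at least 1 from WT and a departure of at least 1 in the same direction, and it had 260 genes (2.23%), 20 higher and 240 lower. In 168 of those 240 both single estimates were above WT, in 35 both were below and in 37 there was one of each. The additive class, with DKO at least 1 from WT and a departure under 0.5, had 91 genes (0.781%), 44 higher and 47 lower. The less-than-additive class, in which a single estimate was at least 1 in size and the departure ran against the summed single effects by at least 1, had 125 genes (1.07%), with 65 higher and 60 lower in DKO and a negative departure in 110. The remaining 10824 genes (92.9%) fell in no class. At an unadjusted p under 0.05 for the departure there were 1081 of the 11652 genes (9.28%), of which 575 had DKO within 0.5 of WT and 344 had it at least 1 away. The redundancy rule sets no minimum size for the departure. The 1081 held 152 of its 352 genes and 163 of the 260 synergy genes, classes sorted on the same estimates.

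The class counts moved with bordering tissue. With the mesenchyme score as a covariate, the redundancy class had 347 higher and 252 lower genes and the synergy class 111 higher and 85 lower. Without the Six3KO library rh026 and the Six6KO library rh020, the redundancy class had 55 higher and 157 lower genes and the synergy class 46 and 232. Leaving out the Six3KO library rh026 alone gave 127 lower genes in the redundancy class and 34 higher in the synergy class. Leaving out the Six6KO library rh007 gave 168 and 31 of these, the WT library rh016 gave 139 lower in the redundancy class, and the Six6KO library rh020 gave 36 higher in the synergy class. Both Six6KO libraries had mesenchyme scores (0.97 and 1.197 above the WT mean) like those of the WT libraries rh016 (1.13) and rh024 (0.98). The WT library rh023 was low (-2.11). All DKO libraries scored below every other library (-3.06 to -2.25), so within these libraries the score and the combination of genotypes cannot be told apart. Of the 151 genes that were also called in DKO minus WT, 67 were in the redundancy class (38 higher, 29 lower) and 23 in the synergy class (10 higher, 13 lower). Another 12 were in the additive class, 0 in the less-than-additive class and 49 (32.5%) in no class. That contrast shares its samples with the classes.

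**Figure D4:**
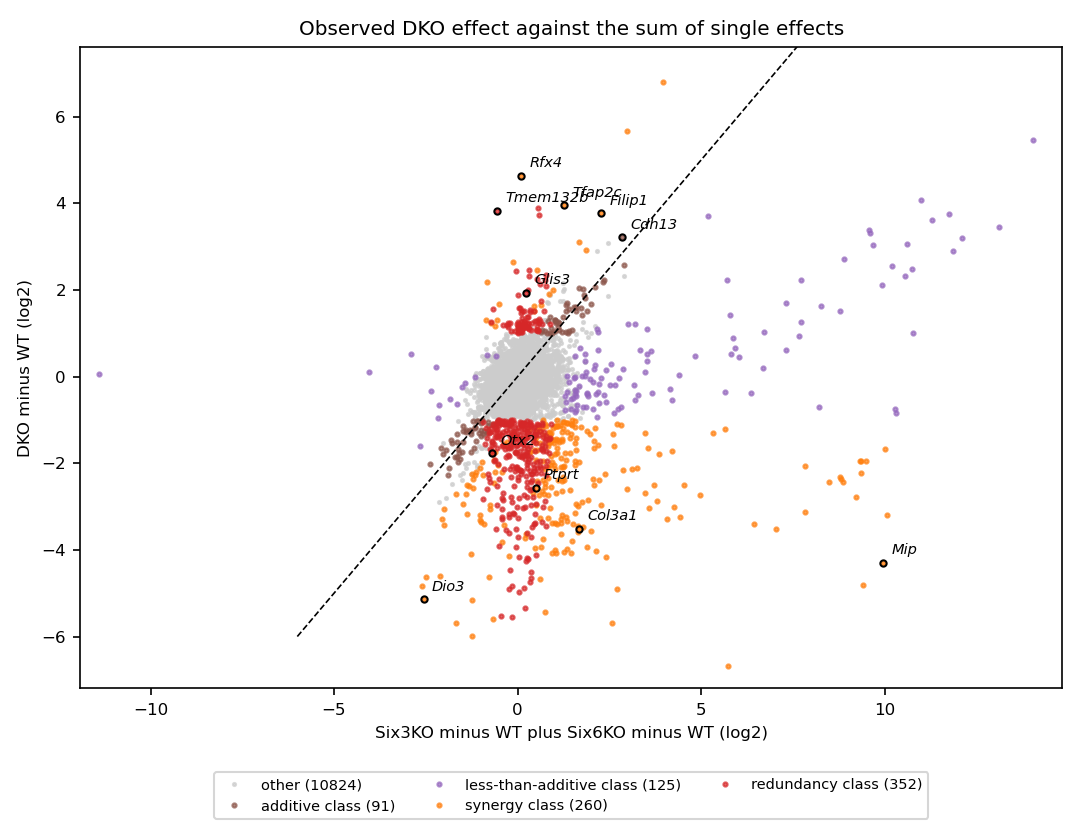
DKO minus WT (vertical axis, log2) against the sum of the single effects (horizontal axis, log2) for 11652 genes (points), coloured by class with the number of genes in each, and the additive line (dashed). Tmem132b and Glis3 lie above the line with sums near 0, Cdh13 lies close to it, and the lens gene Mip lies far below it at a sum of about 10.

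The classes are best seen through their members with the smallest p. In the redundancy class these were Sh3bgrl2, Tmem132b, Spry1 and Glis3, given above. In the synergy class they were Ptprt, Otx2, Filip1 and Tfap2c, the first pair entering it with a single estimate of 0.50 (Ptprt in Six3KO) and -0.50 (Otx2 in Six6KO), at the edge of the redundancy class. Filip1, a filamin-interacting protein, had single effects of the same direction as DKO. It stood at 38.7, 56.4 and 62.3 CPM in WT, 118, 121 and 95.8 CPM in Six3KO, 120 and 118 CPM in Six6KO, and 818, 794 and 535 CPM in DKO. WT, the single mutants and DKO did not overlap, and both single estimates were near a doubling (1.09 ± 0.21 and 1.18 ± 0.23). From an additive level of 253 CPM the departure had a lower 95% limit of 0.80 (adjusted p = 0.311). Filip1 rose in DKO against Six3KO (2.68 ± 0.22, adjusted p = 0.004) and Six6KO (2.59 ± 0.25, adjusted p = 0.0112). Tfap2c, an AP-2 transcription factor of amacrine cells, stood at 2.78 to 8.52 CPM in WT, 6.14 to 7.97 CPM in Six3KO, 7.81 and 12.4 CPM in Six6KO, and 84.0, 108 and 61.3 CPM in DKO. Its departure was 2.71 ± 0.56 from an additive level of 12.9 CPM.

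The additive class had a median departure of -0.02. Its members with the smallest p are those that departed most for their SE, so they are not its most additive genes. Cdh13, the cell-surface protein T-cadherin, stood at 5.31, 4.39 and 2.80 CPM in WT, 7.66, 8.25 and 11.3 CPM in Six3KO, 14.3 and 14.0 CPM in Six6KO, and 41.4, 34.0 and 42.6 CPM in DKO. The 4 groups rank in that order with no overlap. Its single estimates were 1.10 ± 0.24 and 1.74 ± 0.26, the additive level 30.4 CPM and the departure 0.37 ± 0.35 (95% limits -0.40 to 1.15), limits that reach past 2 fold. The other 3 with the smallest p, Lrrc75b (-0.48 ± 0.33), the dynamin gene Dnm3 (-0.44 ± 0.43) and the potassium channel gene Kcnma1 (0.49 ± 0.50), had one single estimate close to 0 and the other in the direction of DKO.

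In the less-than-additive class a single mutant or both stood away from WT in estimate, and DKO departed against their summed effect. Besides Akr1e1, the members with the smallest p were Tubb6, a beta-tubulin (-2.49 ± 0.53), Tmod1, a tropomodulin (-6.01 ± 1.32), and Clstn2, a calsyntenin (-2.54 ± 0.58). DKO estimates could lie on the other side of WT, as for Tubb6 (-0.71, with 0.36 in Six3KO and 1.42 in Six6KO) and Clstn2 (-0.39, with 1.16 and 0.99). With mesenchyme and lens scores as covariates Tubb6 stood at -0.86 and Clstn2 at -1.26, and without rh026 and rh020 Tubb6 stood at -1.45. Tmod1 was uneven within groups, at 1.46, 22.4 and 17.8 CPM in Six3KO and 4.18 and 11.1 CPM in Six6KO against 1.04 to 1.72 CPM in WT and 0.476 to 1.99 CPM in DKO. Its high libraries in Six3KO, rh012 and rh026, were also those highest for the lens gene Mip (1262 and 763 CPM), and its departure was -2.41 with those covariates. Clstn2 stood at 6.01 to 6.63 CPM in WT, 7.54 to 22.7 CPM in Six3KO, 10.6 and 14.5 CPM in Six6KO and 3.11 to 5.88 CPM in DKO.

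The scale mattered for 1 of the 78 named genes. Dio3, the deiodinase that inactivates thyroid hormone, stood at 21.7, 35.0 and 15.4 CPM in WT, 9.67, 13.1 and 4.24 CPM in Six3KO, 14.9 and 6.95 CPM in Six6KO, and 0.328, 0.0828 and 1.59 CPM in DKO. On the log2 scale DKO was below the additive level of 3.98 CPM (-2.58 ± 1.06). In CPM the loss in DKO was smaller than the sum of the single losses, by 4.84 CPM. That sum exceeded the WT mean itself, so the sign in CPM was fixed whatever the DKO level. The other 77 had the same sign on both scales.

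Genes of other parts of the neural tube had large departures from very few reads outside DKO. Rfx4, a winged-helix factor of the developing brain, held 21 reads in WT, 21 in Six3KO, 19 in Six6KO and 671 in DKO, and departed by 4.53 ± 1.12. The homeobox gene Dbx1, a marker of neural tube interneuron progenitors, held 3, 5, 2 and 473 reads in the same order. Its fitted departure of 6.27 ± 1.57 depends on the prior count and is no bound. All 3 DKO libraries were high in both genes, at 6.42 to 28.6 CPM for Rfx4 and 8.01 to 15.5 CPM for Dbx1. Of 17 tested regulators of the neural tube and forebrain, 0 were called, 4 stood above and 4 below at an unadjusted p under 0.05, and the median was -0.995, or 0.48 with the mesenchyme covariate. The members below included the Iroquois genes Irx3 (-2.49 ± 0.73) and Irx5 (-1.77 ± 0.60).

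Retinal cell-type lists leaned below the additive level outside the progenitors. In every list 0 genes were called, so each is given by its counts and its median beside the median of -0.01 over all genes tested, and unadjusted calls are read against 3.92% above and 6.07% below. Of 26 retinal progenitor genes, 4 stood above at an unadjusted p under 0.05 and 0 below, with a median of 0.06. They were Mab21l2 (1.10 ± 0.24) and Mab21l1 (0.58 ± 0.18), which encode nuclear proteins of the early eye, and the homeobox genes Meis1 (0.85 ± 0.27) and Pax6 (0.81 ± 0.28). Mab21l2 stood at 192, 236 and 218 CPM in WT, 217, 277 and 210 CPM in Six3KO, 259 and 190 CPM in Six6KO, and 555, 551 and 465 CPM in DKO. Its 8 other libraries overlapped and DKO stood above them all; its exons overlap those of Lrba.

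Of 33 genes of ganglion cells, 26 lay below 0 with a median of -0.37, and 4 were below and 0 above at an unadjusted p under 0.05. Rbpms, an RNA-binding protein of ganglion cells, stood at 46.7, 47.3 and 39.0 CPM in WT, 36.1, 32.1 and 42.1 CPM in Six3KO, 37.6 and 29.3 CPM in Six6KO, and 10.6, 14.3 and 13.9 CPM in DKO. All DKO libraries lay below the rest, and the departure was -1.10 ± 0.24 from an additive level of 27.7 CPM. Ebf2, a helix-loop-helix factor of early neurons, was of another kind. It stood at 3.82 to 7.17 CPM in WT, 11.52 to 25.1 CPM in Six3KO, 11.3 and 19.1 CPM in Six6KO and at least 11.8 CPM in DKO (mean 12.7 CPM). Every mutant library lay above WT, and the DKO mean lay below those of Six3KO (16.3 CPM) and Six6KO (15.2 CPM), a departure of -1.81 ± 0.52.

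Of 13 photoreceptor precursor genes, 10 had estimates below 0, with a median of -0.79. At an unadjusted p under 0.05, Otx2 and Dio3 stood below and Thrb, the thyroid hormone receptor of cones, stood above (0.89 ± 0.31). Thrb stood at 72.3 to 97.9 CPM in WT, 41.4 to 74.8 CPM in Six3KO, 38.4 and 42.3 CPM in Six6KO and 52.2 to 58.9 CPM in DKO, so DKO lay within the Six3KO range, and its departure was 0.21 with the mesenchyme covariate (unadjusted p = 0.442). Of 25 neurogenic and Notch pathway genes, 20 lay below 0 (median -0.32), with 4 below at an unadjusted p under 0.05. They were Penk (-2.22 ± 0.86), which encodes an opioid precursor, the glycosyltransferase gene Lfng (-0.89 ± 0.37), and the Notch targets Heyl (-1.22 ± 0.51) and Hey1 (-0.62 ± 0.28). Penk stood at -0.28 with the mesenchyme covariate (unadjusted p = 0.727). Lfng stood at 19.9 to 37.8 CPM in the 8 libraries outside DKO and 7.46, 9.44 and 13.4 CPM in DKO. Of 18 amacrine and horizontal cell genes, 2 stood above (Tfap2c and the calcium-binding protein gene Calb1, 3.17 ± 0.68) and 3 below, with a median of -0.53. Those below were the homeobox gene Prox1 (-2.43 ± 0.67), a gene of horizontal cells and also of the lens, the AP-2 gene Tfap2a (-2.96 ± 0.96), which is also in the surface ectoderm list, and the receptor gene Megf10 (-1.79 ± 0.70). Prox1 was highest in the Six3KO libraries with high lens scores, rh012 (141 CPM) and rh026 (118 CPM), and its departure was -1.03 with mesenchyme and lens scores as covariates. The mesenchyme covariate left the medians of these neuronal lists below 0, at -1.22 for ganglion cell, -1.86 for photoreceptor precursor, -0.94 for neurogenic and -0.85 for amacrine and horizontal cell genes, and turned that of the progenitor list to -0.48.

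FGF and MAPK feedback genes, which receptor tyrosine kinase signalling switches on, leaned below the additive level. Of 20, 18 had estimates below 0 and 6 stood below at an unadjusted p under 0.05, with a median of -0.49. Beside Spry1 these were the inhibitors Spry4 (-1.99 ± 0.50) and Spry2 (-0.97 ± 0.39), the ETS factors Etv4 (-1.54 ± 0.41) and Etv5 (-1.34 ± 0.42) and the phosphatase gene Dusp6 (-0.66 ± 0.24). Single estimates of these 6 lay between -0.10 and 0.56. Spry4 stood at 11.6, 13.2 and 10.2 CPM in WT, 7.60, 8.35 and 17.5 CPM in Six3KO, 22.0 and 12.3 CPM in Six6KO, and 3.69, 4.64 and 3.96 CPM in DKO, with only DKO apart. With the mesenchyme covariate the list's median was -0.81, while Spry1 and Spry4 shrank to -1.92 and -1.48. Spry4 then had an unadjusted edgeR p of 0.0562.

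Of 24 ciliary margin genes, which mark the rim of the optic cup, 15 lay above 0 (median 0.36, and 1.63 with the mesenchyme covariate), with 5 above and 1 below at an unadjusted p under 0.05. Those above included the zinc finger genes Zic1, Zic5 and Zic2. Zic1 stood at 65.3, 87.3 and 88.9 CPM in WT, 90.3, 100.2 and 107 CPM in Six3KO, 136 and 89.2 CPM in Six6KO, and 379, 378 and 265 CPM in DKO. Single-mutant libraries were all above the WT libraries, by little, and DKO far above both, with an additive level of 138 CPM and a departure of 1.30 ± 0.30. Zic1 rose in DKO against Six3KO (1.78 ± 0.20, adjusted p = 0.00615) and Six6KO (1.60 ± 0.23, adjusted p = 0.0336); its exons overlap those of Zic4. Zic5 departed by 1.23 ± 0.43 and Zic2 by 1.00 ± 0.40. Within the list of 13 sine oculis homeobox, Eya and Dach genes (median -0.17), the transcriptional cofactor gene Dach2 departed by 1.22 ± 0.31, from 11.8 to 20.8 CPM outside DKO to 37.3, 44.4 and 45.3 CPM in DKO, and Six2 by -4.04 ± 1.31. With the mesenchyme covariate Dach2 stood at 0.76 and Six2 at -1.23.

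Of 14 Hedgehog pathway genes, 11 lay below 0 (median -0.47). The co-receptor gene Cdon, at 300 to 571 CPM outside DKO and 1158, 1131 and 801 CPM in DKO, departed upwards by 1.06 ± 0.35, and Disp1, needed to release Hedgehog ligands, by -0.49 ± 0.19. Of 24 Wnt pathway genes, 1 stood above and 4 below at an unadjusted p under 0.05 (median -0.72, and 0.27 with the mesenchyme covariate). The ligand gene Wnt5b departed by -1.65 ± 0.48 and the Wnt agonist gene Rspo1 by -4.44 ± 1.49, the latter at 0.347 to 17.2 CPM in WT and 0.410 to 0.497 CPM in DKO. Of 22 BMP and TGF-beta pathway genes, 1 stood below, Id1, an inhibitor of helix-loop-helix factors (-1.12 ± 0.44), and the receptor gene Bmpr1b stood at 1.36 ± 0.62; the median was -0.16, and 0.41 with the covariate. Of 17 optic stalk and dorsoventral genes, 2 stood below, Ntn1 (-4.21 ± 1.26) and Aldh1a2 (-5.26 ± 2.02). Ntn1, a guidance cue, and Aldh1a2, which makes retinoic acid, varied strongly within WT (8.09 to 29.7 and 0.694 to 12.97 CPM), and with the covariate they stood at -0.92 and 0.88.

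Cell cycle genes departed little. Of 25 mitosis genes, 24 had estimates above 0 with a median of 0.19, and 2 stood above at an unadjusted p under 0.05, the checkpoint kinase gene Bub1 (0.48 ± 0.17) and the centromere gene Cenpf (0.52 ± 0.23). Their single estimates were below WT and DKO was close to WT: Bub1 stood at 130 to 153 CPM in WT, 105 to 125 CPM in Six3KO, 121 and 122 CPM in Six6KO and 128 to 155 CPM in DKO. Of 26 S phase genes, 0 stood out in either direction at an unadjusted p under 0.05 (median 0.06). With the covariate these medians were 0.08 and -0.13.

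Of 20 p53 target and apoptosis genes, 19 had estimates below 0, with a median of -0.30, and 2 stood below at an unadjusted p under 0.05. Cdkn1a, the p53-induced cell cycle inhibitor, stood at 1.56, 3.12 and 2.93 CPM in WT, 16.7, 17.9 and 36.9 CPM in Six3KO, 11.7 and 16.2 CPM in Six6KO, and 12.9, 20.5 and 2.30 CPM in DKO. Every single-mutant library was above every WT library, and in DKO a pair was above and rh021 within the WT range. The single estimates were 3.25 ± 0.71 and 2.47 ± 0.74, DKO minus WT was 2.24 ± 0.69, and the departure was -3.48 ± 0.98 (adjusted p = 0.336). DKO minus Six3KO was -1.01 (95% limits -2.42 to 0.41), so the limits allow no difference between them. Ddit4, a stress-induced inhibitor of mTOR signalling, departed by -0.85 ± 0.24. With the mesenchyme covariate the list's median was 0.05.

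Genes of bordering tissue had the largest departures of any list. The lens list had a median of -11.15, with all 23 tested genes below 0 and 22 of them at an unadjusted p under 0.05. Mip, the water channel of lens fibres, stood at 1.95, 3.70 and 26.4 CPM in WT, 4.20, 1262 and 763 CPM in Six3KO, 2.67 and 312 CPM in Six6KO, and 0.164, 1.24 and 0.159 CPM in DKO. High values came from 2 of the 3 Six3KO libraries and 1 of the 2 Six6KO libraries, and the remaining one of each group lay within the WT range. Since estimates in both singles were raised by these libraries, the additive level for DKO was 10146 CPM, above any library. Without rh026 and rh020 the departure of Mip was -8.28 and that of Lim2, another lens fibre membrane protein gene, -6.55 (from -14.25 and -14.23). That fit leaves 1 Six6KO library, and DKO held 19 reads of Mip and 2 of Lim2, so the sizes are poorly fixed. With mesenchyme and lens scores as covariates, the latter built from lens genes, the departures were -2.51 and -1.10. The periocular mesenchyme list had a median of -4.57, with all 25 genes below 0 and 19 at an unadjusted p under 0.05. The collagen gene Col1a1 stood at 258, 126 and 407 CPM in WT, 264, 124 and 633 CPM in Six3KO, 430 and 92.9 CPM in Six6KO, and 5.57, 17.6 and 11.6 CPM in DKO, a departure of -4.86 ± 1.14. Only the DKO group stood apart in it. Surface ectoderm (median -2.72), pigment epithelium (-3.32) and blood vessel genes (-1.88) had the same sign, while macrophage and microglia genes stood at -0.21 and red blood cell genes at -0.92. The covariate, itself built from mesenchyme genes, moved the medians of surface ectoderm to 0.78, pigment epithelium to 2.87 and blood vessel genes to 3.59. With it the mesenchyme list stood at 0.36, macrophage and microglia genes at 0.63 and red blood cell genes at -0.63. The part of bordering tissue in the departures of retinal genes was not tested beyond these values.

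**Figure D5:**
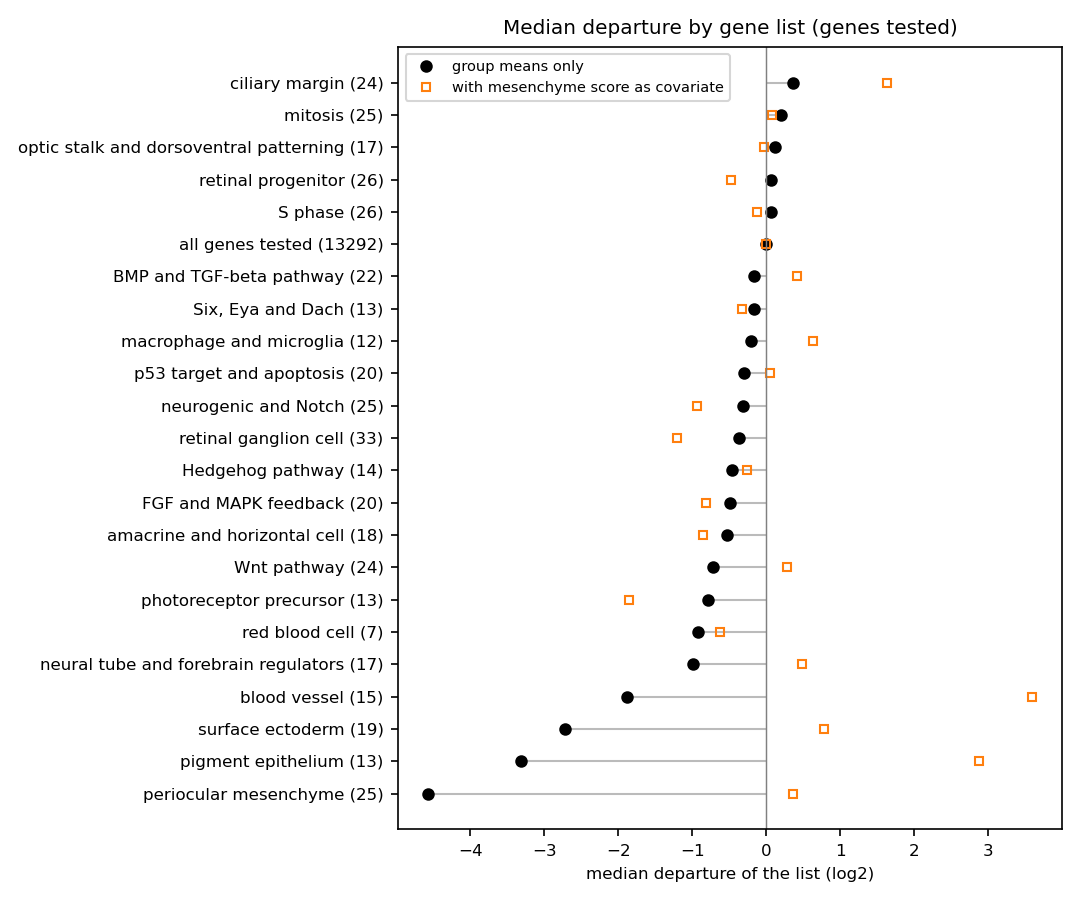
Median departure (horizontal axis, log2) of 22 gene lists and all genes (vertical axis, genes tested in brackets) from the fit with group means only (points) and with the mesenchyme score as a covariate (squares); the lens list, at -11.15, is left off the axis. Neuronal and FGF lists stay below 0 in both fits. The neural tube, Wnt, BMP, p53, pigment epithelium, surface ectoderm, vessel, macrophage and mesenchyme lists move from below to above 0. The retinal progenitor, optic stalk and S phase lists move from above to below it.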

How the data were processed

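The deposited data are raw read counts for 13498 gene symbols in 11 libraries; the columns name the group and a library (such as rh016). Per the submitters' processing notes, Trim Galore 0.3.7, TopHat2 2.0.13, HTSeq 0.6.1, Cufflinks 2.2.1 and Cuffdiff were used, with mm10; annotation and strandedness are unknown. Per the labels' protocols, libraries were made from total RNA after removal of ribosomal RNA.

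In R 4.3.3, genes were kept by filterByExpr of edgeR 4.0.16 (minimum count 10), scaled by TMM and fitted with a robust quasi-likelihood model of 4 group means over all 11 libraries (7 residual degrees of freedom). The SE is the size of a log2 difference divided by the square root of F, and 95% limits use the fit's degrees of freedom. List scores are mean log2 CPM (prior count 2). Alternatives were library totals without TMM, RLE size factors, other low-count filters, DESeq2 1.42.0, limma 3.58.1 (voom), a fit without robust dispersion, each library left out, rh026 and rh020 left out, and mesenchyme (and lens) scores as covariates. DESeq2 with the last pair of choices, and class counts without rh026 and rh020 and with both scores, were added after seeing the data. DESeq2 gave no adjusted p for 69 genes.

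Named genes (78) were Six3, Six6 and Esr1, the 24 with the smallest departure p, 4 per class and 2 per list with the smallest p, and 6 shown in earlier work on these data; those chosen by p or class had a mean of at least 5 CPM, and noncoding Xist and Tsix, Y-linked, mitochondrial, predicted, pseudo- and small RNA genes were not eligible. Some genes that this rule picks are not reported here. Some list members at an unadjusted p under 0.05 are also named, chosen after their values were seen. Xist, the X-inactivation RNA of female cells, departed by 11.49 in DESeq2 (adjusted p = 0.0448), with an unadjusted p of 0.0508 in edgeR. Embryo sex was in no fit, and its part in the departures of X-linked genes such as Dach2 was not tested. The comparison, classes and 23 gene lists were chosen with earlier results of these data known, so they are no independent support. GENCODE vM21 (GRCm38) gave positions, and in it 13015 tested symbols (97.9%) matched a single gene; 26 of the 78 share exon positions with some other gene. The model was tested on 3 simulated data sets, each with 200 changed genes (13255 to 13259 genes, 5 to 12 false calls each). Replicate libraries of a group all differed by more than counting error.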

Additional observations from a re-analysis of the deposited data

How the results depend on the processing

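The count of genes called in edgeR stayed at 0 with library totals, with RLE size factors, both other filters, no robust dispersion, a threshold of 0.1, both covariate fits and without rh026 and rh020, and in limma voom. Leaving out 1 library gave 0 to 3 calls (0 to 3 higher, 0 lower), the 3 without the DKO library rh021. DESeq2 gave 240 (76 higher, 164 lower), 37 (21 and 16) without rh026 and rh020, and 106 (91 and 15) with the mesenchyme covariate. Redundancy class counts (78 higher, 274 lower) ran from 59 to 106 and 127 to 352 with 1 library left out, and synergy class counts (20 and 240) from 16 to 36 and 217 to 344. With sizes of 1.5 fold in place of 2 fold the synergy class had 98 and 538, and at a minimum of 1 CPM 41 and 408. With the mesenchyme covariate the redundancy class had 347 higher and the synergy class 111 and 85; with both scores these were 363, 147 and 105. Without rh026 and rh020 the redundancy class had 157 lower and the synergy class 46 higher. Of the 78 named genes, 67 kept the direction of their departure in all 23 alternatives and 11 did not; the causes were not tested. With the mesenchyme covariate, departures turned to 0.88 (Aldh1a2), 1.15 (Slc45a2), 1.52 (Gpnmb), -0.055 (Kcnma1) and -0.73 (Six3), and in DESeq2 with it to 0.77, 1.56, 1.69, -0.056 and -0.73. With both scores they turned to 2.74 (Aldh1a2), 0.57 (Slc45a2), 1.11 (Gpnmb), -0.024 (Tfrc), -0.025 (Cenpf), -0.26 (Ccne2), 0.78 (C1qc) and -1.41 (Six3). Without rh026 and rh020 they turned to 0.42 (Hba-x), 0.49 (C1qc) and -0.48 (Six3), and in DESeq2 to 0.41, 0.47 and -0.50. Without the Six6KO library rh020 they turned to 0.10 (Hba-x), 0.38 (C1qc) and -0.18 (Six3), without rh007 to 0.29 (Dnm3), and Six3 to -0.057 without rh021 and -0.040 without the Six3KO library rh026. With 1 library left out these ran from -3.01 to 0.10 (Hba-x), -0.92 to 0.29 (Dnm3), -1.201 to 0.38 (C1qc) and -0.18 to 0.91 (Six3). No paired analysis was possible because the columns of the table carry no replicate number. Of the 78, 24 had departures smaller by over 1.5 times (or turned) with the mesenchyme covariate, 37 with both scores and 17 without rh026 and rh020. At these depths and library numbers 11.4% of simulated 2-fold departures and 72.1% of 4-fold ones were recovered, so 2-fold departures were mostly missed in the simulations. The simulated libraries held no variation from bordering tissue, so their recovery need not hold for the real ones. Depth and library number were not varied.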
